A study of Mus musculus with 899 samples.

Results

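The samples described here are plasma small RNA libraries from C57Bl/6 mice that were sham irradiated and bled repeatedly over 6 months. They were chosen by their labels alone, as the samples of strain C57Bl/6 that were marked as not irradiated, and came to 176 of the 899 samples of the series and to 32 of its 196 mice. The baseline, called PT, was a bleed taken 14 days before the sham treatment, and the later samples were taken at day 2 (D2) or day 5 (D5) and at months 1 to 6 (M1 to M6) after it. PT and M1 were sampled in all 32 mice, D2 and D5 in 16 mice each, and each of M2 to M6 in 16 mice. The mice were 16 males and 16 females, and they fell in 2 cohorts of 16 (title codes G1 and G3), of which cohort 1 supplied every sample from M2 on. At the start of the study the males were 8 to 10 weeks old and the females 10 to 12 weeks old. By their labels the mice carried no transgene, and the other mice of the series were irradiated to the whole thorax or belonged to strain C3H. Blood was drawn behind the eye under isoflurane, except for terminal bleeds from the heart, and the labels do not say which samples were terminal. Age, the number of earlier bleeds and sham handling all moved with the time point, so that they cannot be told apart from time in these comparisons. The labels do not give the sequencing run of each sample either. Run and bleed site may also have moved with the time point, and where they did they cannot be told apart from time.

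MicroRNAs (miRNA) are short RNAs that are cut from hairpin precursors and guide Argonaute proteins to messenger RNAs, mainly through bases 2 to 8 of the miRNA, which are called the seed. Plasma carries miRNA released from blood cells, endothelium, liver, muscle and other tissues, in vesicles or bound to proteins, and some of them come largely from one source, such as miR-451a and miR-486a from red blood cells, miR-122 from liver and miR-206 from skeletal muscle. Others are known for their genomic clusters, such as the miRNA of the imprinted Dlk1-Dio3 domain, which are transcribed from the maternal chromosome, and the let-7 family, whose members accumulate as animals mature. In plasma, fewer cells of a type releasing RNA and less RNA released per cell cannot be told apart.

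The mature sequences below belong to the miRNA on which the results turn, and they are written 5′ to 3′ with the seed in capitals. They are RefSeq sequences of the GRCm38.p6 build, which has the coordinates of the mm10 build the counts were made on, and 304 of the 357 miRNA tested were matched in the RefSeq table used here. The first 4 lie in the Dlk1-Dio3 cluster and each has a seed of its own.
miR-382-5p: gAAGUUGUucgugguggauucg
miR-434-3p: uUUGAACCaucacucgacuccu
miR-381-3p: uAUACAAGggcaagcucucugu
miR-136-5p: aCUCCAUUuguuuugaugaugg
The next 4 share the let-7 seed, and they are shown because the other 3 differ from let-7a-5p by 1 or 2 bases and their changes are described one by one.
let-7a-5p: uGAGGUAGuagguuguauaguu
let-7c-5p: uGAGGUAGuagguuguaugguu
let-7d-5p: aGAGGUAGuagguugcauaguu
miR-98-5p: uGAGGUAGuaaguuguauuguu
The miR-200 family has 2 seeds that differ at 1 base, the first carried by miR-141 and miR-200a and the second by miR-200b and miR-200c.
miR-141-3p: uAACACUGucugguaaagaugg
miR-200a-3p: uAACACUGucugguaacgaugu
miR-200b-3p: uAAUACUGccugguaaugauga
miR-200c-3p: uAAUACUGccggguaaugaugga
The 3 miRNA that follow share the miR-17 seed.
miR-17-5p: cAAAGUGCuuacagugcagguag
miR-20a-5p: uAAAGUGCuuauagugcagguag
miR-93-5p: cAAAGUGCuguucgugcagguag
The remaining miRNA are those with the largest or the most lasting changes of the time course, or with the clearest difference between strains.
miR-92a-3p: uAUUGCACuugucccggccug
miR-34a-5p: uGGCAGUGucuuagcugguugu
miR-31-5p: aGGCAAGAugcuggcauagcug
miR-206-3p: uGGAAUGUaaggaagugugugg
miR-148a-3p: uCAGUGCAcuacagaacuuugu
miR-132-3p: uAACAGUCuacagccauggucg
miR-181a-5p: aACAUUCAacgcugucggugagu
miR-223-3p: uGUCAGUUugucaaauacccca

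By the GENCODE vM21 annotation of GRCm38, the 25 tested Dlk1-Dio3 miRNA that had a position lay within 157637 bases of chromosome 12, at chr12:109585850-109743486. Among them miR-434-3p (chr12:109594565-109594586) lies opposite an exon of the protein-coding gene Rtl1, and miR-382-5p (chr12:109733781-109733802) lies in an intron of the lincRNA Mirg. The let-7a-5p and let-7d-5p copies on chromosome 13 (chr13:48538239-48538260 and chr13:48536078-48536099) lie in an exon of the lincRNA 6720427I07Rik, and miR-98-5p (chrX:151913229-151913250) lies in an intron of Huwe1. miR-200c-3p and miR-141-3p (chr6:124718324-124718346 and chr6:124717917-124717938) lie in an intron of the antisense transcript Gm15884, whereas miR-200b-3p and miR-200a-3p (chr4:156055685-156055706 and chr4:156054911-156054932) lie in an intron of Ttll10. miR-17-5p, miR-20a-5p and 1 of the 2 copies of miR-92a-3p lie in an exon of the lincRNA Mir17hg (chr14:115043684-115043706, chr14:115044183-115044205 and chr14:115044476-115044496), and miR-93-5p (chr5:138165574-138165596) lies within an annotated exon of Mcm7. miR-206-3p (chr1:20679055-20679076) lies in an exon of the lincRNA Gm28653, and miR-34a-5p (chr4:150068473-150068494) overlaps no other gene.

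Total miRNA reads ranged from 419427 to 9022364 per library, with a median of 1473503, and 357 of the 1915 miRNA in the table passed the filter on low counts. miR-16-5p was the most abundant miRNA in 175 of the 176 libraries and took a median of 47.6% of the reads at PT and 35.9% at M6. Libraries were deeper than the PT library of the same mouse at M1 (by 0.62 ± 1.18 on the log2 scale, mean ± SD, n = 32, adjusted p = 0.045, permutation test with sign flips), and at the other 7 time points this adjusted p was 0.094 or more. The number of detected miRNA was higher than at PT at M1, M2, M3, M5 and M6 (by 39.3 to 53.9 on average, adjusted p = 0.0043 to 0.031), and the share of the most abundant miRNA was lower at M1, M2, M3 and M6 (adjusted p = 0.0015 to 0.041), so that both moved with the later time points, and their part in the results was not tested. Among groups of libraries, those of the 4 cohort 2 females at D5 held fewer detected miRNA (244 to 432, median 257) than the other D5 groups, whose medians were between 367.5 and 433.5. In addition, the 8 cohort 2 males at M1 had log2 ratios of miR-451a to miR-23a-3p, a measure of red blood cell RNA, of −4.59 to −1.17 with a median of −3.18, against M1 medians of −1.20 to −0.36 in the other groups. The 4 cohort 1 males at D2 also stood apart, with a median ratio of 1.10 against −0.70 to −0.36 in the other D2 groups and TMM factors of 0.55 to 0.69 against 0.73 to 1.22. The counts of all changed miRNA at D2, D5 and M1 are therefore given with and without these libraries. The same holds for the Dlk1-Dio3, let-7, epithelial and red blood cell lists, and for some single miRNA. The other lists, and the sex, cohort and strain tests, were not refitted without these libraries. Levels below are log2 CPM (counts scaled to a common library total, after TMM), and changes are fitted log2 fold changes against PT with their standard error (SE), from an edgeR quasi-likelihood fit with the mouse as a block. Adjusted p-values are over all 357 miRNA, and a miRNA is said to have risen or fallen where its adjusted p was under 0.05.

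Sham plasma differed from its own baseline at every time point, and in both directions. At D2, 54 miRNA rose and 39 fell (26.1% of those tested), and at D5 51 rose and 71 fell (34.2%). At M1, 63 rose and 48 fell (31.1%). From M2 on, 51 rose and 51 fell at M2 (28.6%), 77 and 69 at M3 (40.9%), 68 and 64 at M4 (37%), 69 and 70 at M5 (38.9%) and 83 and 73 at M6 (43.7%). In the direction of a rise alone, the share of all tested miRNA was 15.1% at D2, 14.3% at D5, 17.6% at M1, 14.3% at M2, 21.6% at M3, 19% at M4, 19.3% at M5 and 23.2% at M6. The share that fell was 10.9% at D2, 19.9% at D5, 13.4% at M1, 14.3% at M2, 19.3% at M3, 17.9% at M4, 19.6% at M5 and 20.4% at M6. A change at any time point passed the F test for 262 miRNA (73.4%). The median change of all tested miRNA stayed between −0.16 (D5) and 0.08 (M1). The D2 count of 93 was 80 without the 4 cohort 1 males, the D5 count of 122 was 85 without the 4 cohort 2 females, and the M1 count of 111 was 75 without the 8 cohort 2 males. The M1 count also depended on the cohort, with 32 miRNA in cohort 1 alone and 103 in cohort 2 alone, and it was 65 with the miR-451a to miR-23a-3p ratio as a covariate.

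**Figure D1:**
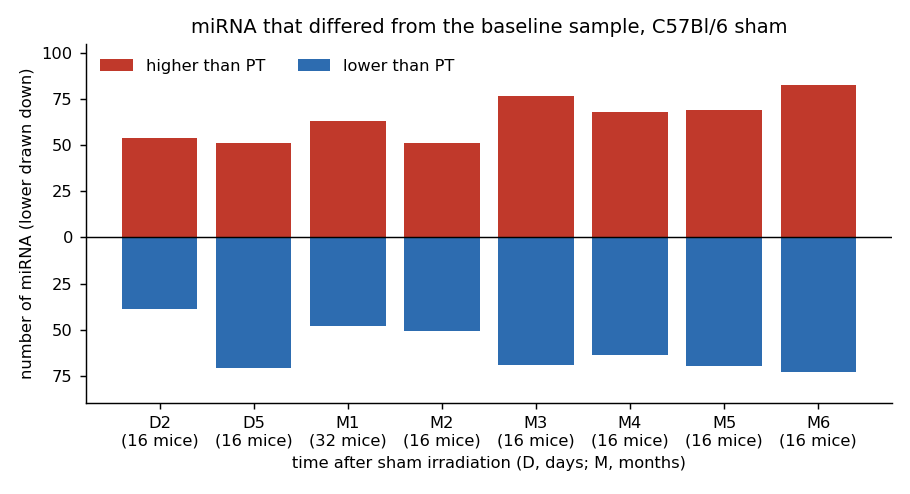
Number of miRNA whose plasma level differed from PT (adjusted p under 0.05, 357 tested) at each time point after sham irradiation, with rises drawn upward and falls downward and the number of mice under each time point. Counts were lowest at D2 (54 higher, 39 lower) and highest at M6 (83 higher, 73 lower), and all samples from M2 on came from the 16 mice of cohort 1.

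Only 11 miRNA changed at all 8 time points. miR-148a-3p, which is abundant in liver and secretory epithelium, and miR-200c-3p rose at each of them in the fit of all mice, although at D2 miR-200c-3p was at −0.075 in cohort 2 alone and its call was lost in males alone (0.83), in the limma-voom fit with a random mouse effect (0.80) and with only the D2 and PT pairs (0.79). The 9 that fell at each were miR-132-3p, miR-143-3p, miR-181a-5p, miR-181c-5p, miR-30e-5p, miR-322-3p, miR-375-3p, miR-425-5p and miR-484, and miR-375 is the miRNA of endocrine and gut epithelial cells. Without the cohort 1 males, the D2 falls of miR-181a-5p (−0.59) and miR-181c-5p (−0.39) no longer passed. A further 80 miRNA changed at none of the 8 time points, and 38 rose at some and fell at others. From M2 to M6, 23 miRNA rose at each of the 5 time points and 34 fell at each. Few miRNA left the range of the baseline. Those whose samples did not overlap the PT samples of the same mice were miR-144-5p and miR-30a-5p at D5, miR-34a-5p, miR-425-5p, miR-6967-3p and miR-92a-3p at M3, miR-92a-3p at M4, and miR-142a-3p, miR-143-3p and miR-15b-5p at M5.

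The Dlk1-Dio3 cluster rose early and was lower than baseline by the end. Of its 107 miRNA in the table, 27 passed the filter on low counts, and of these 12 rose and 0 fell at D2, 5 rose and 0 fell at D5, and 15 rose and 0 fell at M1. The median change of the 27 was 1.01 at D2, 0.49 at D5 and 0.70 at M1, beside medians of −0.02, −0.16 and 0.08 over all tested miRNA. At M2 to M5 few members passed in either direction (2 higher and 1 lower at M2, 2 and 3 at M3, 1 and 2 at M4, 1 and 6 at M5), and at M6 0 rose and 12 fell, with a median change of −0.86. The members that rose at M2 to M5 were the rare and closely related miR-376a-3p (M2 to M5), miR-376b-3p (M2) and miR-376b-5p (M3), and miR-376a-3p had no read in 18 of the 32 PT libraries. In cohort 1 alone 8 of the 27 rose at D2 and in cohort 2 alone 9, and the mean change within mice was above 0 for 21 of 27 in cohort 1 and for 26 of 27 in cohort 2. At D5, 4 of 27 rose in cohort 1 alone and 2 in cohort 2 alone, and the mean changes were above 0 for 19 of 27 in cohort 1 (median 0.55) and for 11 of 27 in cohort 2 (median −0.11). Without the cohort 1 males the D2 count was again 12, without the cohort 2 females the D5 count was 6, and without the cohort 2 males the M1 count was 11, while at M1 4 rose in cohort 1 alone and 9 in cohort 2 alone. With the red blood cell ratio as a covariate, 13 rose at D2 and 6 at M1, and the falls were more numerous than in the fit without it, with 9 at M3 (median change −0.78), 6 at M4, 13 at M5 and 15 at M6.

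Within the cluster, miR-382-5p had the largest change at D2. Its level was between 6.50 and 8.93 at PT, with a median of 8.03, and between 8.24 and 10.61 at D2, with a median of 9.69. The D2 and PT ranges overlapped, but the level was higher at D2 than at PT in 16 of 16 mice, and the change was 1.87 ± 0.21 (adjusted p = 1.7e-12). The rise of miR-382-5p was 1.52 ± 0.21 at D5 (adjusted p = 1.2e-09, 15 of 16 mice) and 1.18 ± 0.17 at M1 (adjusted p = 1.3e-08, 27 of 32 mice), and the level then returned to the PT range, with a change of 0.05 ± 0.22 at M2 (adjusted p = 0.89) and −0.53 ± 0.22 at M6 (adjusted p = 0.043). Leaving out the libraries that stood apart gave 1.44 at D5 and 1.06 at M1.

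miR-434-3p, whose precursor lies antisense to Rtl1, also rose in the first month and then fell below its baseline. The levels of miR-434-3p were 6.20 to 8.24 at PT (median 7.07), 6.67 to 8.89 at D2 (median 8.19) and 4.98 to 7.21 at M6 (median 6.22). All 3 ranges overlapped. The change was 1.12 ± 0.19 at D2 (adjusted p = 1.1e-06, higher in 15 of 16 mice), 0.87 ± 0.15 at M1 (adjusted p = 9.9e-07, higher in 27 of 32 mice) and −0.98 ± 0.20 at M6 (adjusted p = 2.2e-05, higher in 1 of 16 mice).

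miR-381-3p rose at D2 and was below its baseline from M2 on. Its level was 6.76 to 8.65 at PT (median 7.84), 7.93 to 9.47 at D2 (median 8.83) and 5.19 to 7.68 at M6 (median 6.28). Its change was 0.99 ± 0.20 at D2 (adjusted p = 5.5e-05), −0.63 ± 0.21 at M2 (adjusted p = 0.014) and −1.46 ± 0.21 at M6 (adjusted p = 7e-09), with 1 of 16 mice higher at M6 than at PT. miR-136-5p, the other member antisense to Rtl1 whose sequence is shown, rose by 1.39 ± 0.21 at D2 (adjusted p = 6.5e-08) but was not below its baseline at M6 (−0.13 ± 0.22, adjusted p = 0.65).

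**Figure D2:**
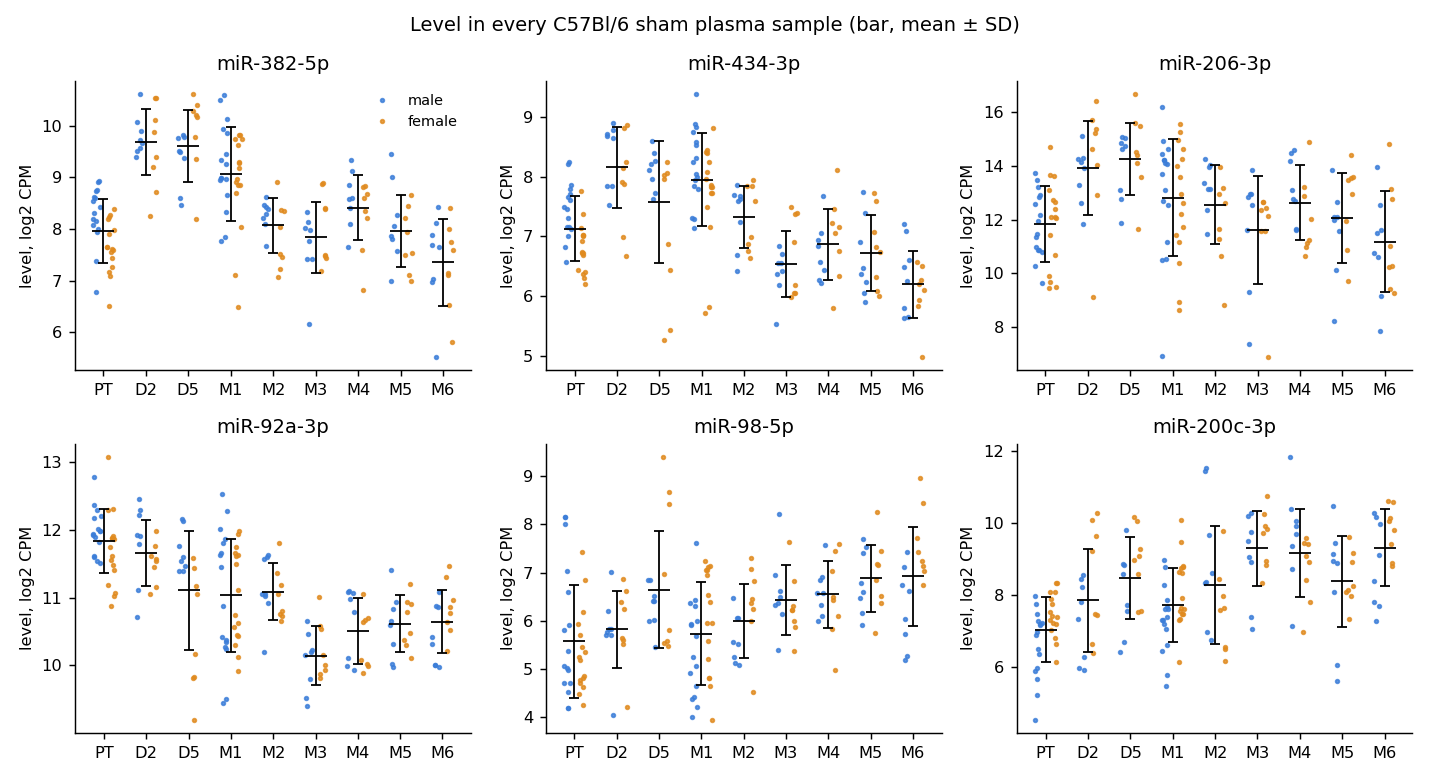
Level (log2 CPM) of 6 miRNA in each of the 176 C57Bl/6 sham samples by time point, with males in blue, females in orange, and the mean ± SD of all samples in black. miR-382-5p and miR-434-3p were highest at D2 to M1, miR-206-3p at D2 and D5, miR-92a-3p was lowest at M3 (9.40 to 11.01 against 10.88 to 13.08 at PT), and miR-98-5p and miR-200c-3p were higher at M3 to M6 than at PT.

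Of the muscle and heart miRNA, only miR-206-3p passed the test for a rise. At D2 the mean change within mice was above 0 for 3 of 6 tested members in cohort 1 and for 6 of 6 in cohort 2. miR-206-3p, which is made in skeletal muscle, ranged from 9.45 to 14.72 at PT (median 12.06), from 9.12 to 16.44 at D2 (median 14.21) and from 11.66 to 16.68 at D5 (median 14.58). The ranges overlapped widely, and 13 of 16 mice were higher at D2 than at PT. The change of miR-206-3p was 2.76 ± 0.52 at D2 (adjusted p = 9.8e-06), 1.81 ± 0.49 at D5 (adjusted p = 0.0018) and 1.12 ± 0.40 at M1 (adjusted p = 0.02), and without the cohort 2 males the M1 change was again 1.12 but no longer passed the test. None of the other 5 tested members of the muscle and heart list rose at D2, D5 or M1, and for miR-1a-3p and miR-133a-3p the D2 changes were 0.76 ± 0.51 (adjusted p = 0.29) and 0.89 ± 0.45 (adjusted p = 0.14). At later times miR-1a-3p fell at M4 (−1.57 ± 0.50, adjusted p = 0.0076) and M5 (−1.48 ± 0.50, adjusted p = 0.011), and miR-499-5p fell at 3 of the 8 time points. In the slope over M1 to M6 described below, 4 of the 6 members fell and 0 rose, beside 23% of all tested miRNA falling.

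At D5, large changes were seen in both directions. miR-151-5p rose by 1.90 ± 0.23 (adjusted p = 8.5e-12), from 3.45 to 6.08 at PT (median 4.72) to 5.59 to 8.45 at D5 (median 6.60), and was higher in 16 of 16 mice. miR-223-3p, the miRNA of neutrophils and other myeloid cells, rose by 1.65 ± 0.16 (adjusted p = 9.1e-17), from 9.35 to 11.69 (median 10.56) to 11.12 to 13.96 (median 11.88). Both miRNA overlapped their PT ranges, and without the cohort 2 females the changes were 1.64 for miR-151-5p and 1.35 for miR-223-3p. In contrast miR-144-5p, transcribed together with miR-451a in the red cell lineage, fell by 1.76 ± 0.26 (log2 change −1.76, adjusted p = 4.5e-09) at D5. Its levels were 7.03 to 9.23 in the 32 PT samples (median 8.10) and 5.47 to 7.64 at D5 (median 6.39), and the D5 samples did not overlap the PT samples of the same 16 mice. The opposite arm of the same hairpin, miR-144-3p, also fell (−0.78 ± 0.25, adjusted p = 0.0073).

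Members of the miR-17 seed family did not move together in these weeks. miR-17-5p rose by 0.80 ± 0.16 at D2 (adjusted p = 5.5e-05) and by 1.38 ± 0.17 at D5 (adjusted p = 1e-11), from 7.85 to 9.80 at PT (median 8.52) to 8.77 to 11.17 at D5 (median 9.98), and 15 of 16 mice were higher. Without the cohort 1 males the D2 change of miR-17-5p was 0.45 and no longer passed (adjusted p = 0.056). miR-20a-5p is made from the same primary transcript and is identical to miR-17-5p at 21 of 23 bases, and it fell by 0.57 ± 0.13 (log2 change −0.57) at D2 and by 0.92 ± 0.13 (log2 change −0.92, adjusted p = 5e-09) at D5. miR-93-5p, identical to miR-17-5p at 19 of 23 bases, changed by −1.09 ± 0.16 at D5 (adjusted p = 5.8e-09). Of the 6 tested miRNA with this seed, 2 rose and 3 fell at D5. Reads of near-identical miRNA may be shared between them, and how the counting assigned such reads is not given in the sources used here.

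Liver and neural miRNA were among those that fell in the first days. Of the 7 tested members of the liver list 4 fell at D2 and 3 at D5, with 0 rising, and the median change was −0.78 at D2 and −0.32 at D5. The cohorts were unequal, with medians of the mean change within mice of −0.97 in cohort 1 and −0.05 in cohort 2 at D2, where the cohort difference passed for 2 of 7, and of −0.99 and −0.14 at D5, where it passed for 0 of 7. miR-192-5p, expressed in liver and gut, changed by −0.62 ± 0.18 at D2 (adjusted p = 0.0048). miR-122-5p, the defining miRNA of hepatocytes, had a change of −0.58 ± 0.33 at D2 (adjusted p = 0.2) with levels from 8.86 to 14.49. miR-122-5p was therefore not among the 4 called at D2, although its change was near that of miR-192-5p and had a larger SE. Over the whole time course miR-122-5p fell at 2 time points, neither of them D2, and rose at 0. At M6 2 of the 7 rose and 0 fell, but the sexes went apart, with a median change of 0.78 in males and −0.47 in females and a lower change in females for 5 of 7. Of the 4 tested neural miRNA 2 fell at D2 and 2 at D5, and miR-124, the defining miRNA of neurons, did not pass the filter on low counts.

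Red blood cell miRNA were lower than at baseline in the later months. Of 7 tested members, 0 rose at any time point, and 1 fell at D2, 4 at D5, 4 at M1, 4 at M2, 5 at M3, 5 at M4, 4 at M5 and 6 at M6. Without the cohort 1 males 3 fell at D2, without the cohort 2 females 1 fell at D5, without the cohort 2 males 3 fell at M1, and in cohort 1 alone 0 fell at M1. miR-486a-5p fell from 13.58 to 16.47 at PT (median 15.01) to 12.47 to 14.62 at M3 (median 13.53), a change of −1.76 ± 0.19 (adjusted p = 5.2e-14). miR-451a, the most restricted red cell miRNA, changed by −1.44 ± 0.27 at M3 (adjusted p = 3.4e-06), with levels of 11.86 to 14.23 at PT (median 12.55) and 10.69 to 12.77 at M3 (median 11.53). The log2 ratio of miR-451a to miR-23a-3p, used as a measure of hemolysis in plasma, was lower than at PT by between 0.64 and 1.34 on average at M1 to M6 (log2 changes −1.16, −0.74, −1.34, −0.64, −1.18 and −0.86, adjusted p = 0.00096, 0.00057, 0.00057, 0.017, 0.00057 and 0.016, permutation test with sign flips), and was not shown to differ at D2 or D5 (adjusted p = 0.58 at both). The summed level of all 8 miRNA on the red blood cell list, tested or not, had medians of 16.1 at PT, 14.7 at M3 and 15.0 at M6. The median of the same sum over all 21 miRNA on the leukocyte list stayed between 14.6 and 15.0 at all 9 time points. The part that the amount of red cell RNA had in the other changes was not tested beyond the values with this ratio as a covariate.

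miR-92a-3p, the last member of the miR-17 to miR-92a cluster and abundant in red cells and endothelium, had the smallest adjusted p of the time course. Its levels at PT were 10.88 to 13.08, with a median of 11.88. At M3 they were 9.40 to 11.01 with a median of 10.16, and the change was −2.14 ± 0.17 (adjusted p = 2.3e-22). No mouse of 16 was higher than its own baseline at M3, M4, M5 or M6, and the later changes were −1.77 ± 0.17, −1.69 ± 0.17 and −1.62 ± 0.17. The M1 change of −0.80 ± 0.12 (adjusted p = 5.1e-08) came with unequal cohorts, the mean change within mice being −0.29 in cohort 1 and −1.32 in cohort 2. Without the cohort 2 males it was −0.59 and still passed the test, while the D5 change of −0.66 went to −0.40 without the cohort 2 females and no longer passed.

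Several miRNA that mark lasting rises had low baselines. miR-34a-5p, whose gene is a target of p53, was at 5.70 to 7.52 at PT (median 6.61) and at 7.54 to 9.13 at M3 (median 8.24), so that these groups did not overlap. Its change was 1.86 ± 0.18 at M3 (adjusted p = 1.4e-16) and 1.64 ± 0.18 at M6 (adjusted p = 2.8e-13), and 16 of 16 mice were higher at M3, M4 and M5. miR-31-5p, expressed in squamous and other epithelia, rose from 4.49 to 7.66 (median 6.27) to 7.49 to 9.09 at M6 (median 8.15), a change of 1.76 ± 0.18 (adjusted p = 8.3e-15), with 16 of 16 mice higher. miR-135a-5p had the largest rise of this set, 2.57 ± 0.37 at M3 (adjusted p = 1.7e-09), from 1.74 to 6.24 at PT (median 4.13) to 3.84 to 8.89 (median 6.65).

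The epithelial list, which holds the miR-200 family with miR-203 and miR-205, was higher in the later months, while the cohorts were unequal at M1 and the sexes at M2. Of its 12 tested members 1 rose and 1 fell at D2 and 1 rose and 2 fell at D5, whereas 5 rose at M1, 4 at M2, 8 at M3, 7 at M4, 8 at M5 and 9 at M6, with 0 falling at M1 to M6. The median change reached 0.99 at M3 and 0.90 at M6, beside 0.03 and 0.05 over all tested miRNA. miR-200c-3p rose from 4.54 to 8.35 at PT (median 7.22) to 6.97 to 11.84 at M4 (median 9.38), a change of 1.99 ± 0.31 (adjusted p = 5.8e-08), and was higher in 14 of 16 mice. miR-141-3p, its neighbour on chromosome 6, rose from 9.96 to 11.82 (median 11.01) to 11.29 to 13.54 at M3 (median 12.75), a change of 1.67 ± 0.21 (adjusted p = 1.2e-11). Both of these groups overlapped their baseline. By seed, 2 of 2 members with AACACUG and 3 of 3 with AAUACUG rose at each of M3 to M6. The 5 members that rose at M1 did so in cohort 2, where 5 of 12 rose when it was fitted alone, against 0 of 12 in cohort 1 alone, and 1 of 12 rose without the cohort 2 males or with the red blood cell ratio as a covariate. At M2 the median change was 1.19 in males and −0.21 in females, and 9 of 12 had a lower change in females. Without the cohort 1 males 0 of 12 fell at D2, and without the cohort 2 females 0 of 12 fell at D5.

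let-7 miRNA rose in larger number in the later months. Of 16 tested members of the family (both arms) 3 rose at D2, 4 at D5, 3 at M1, 4 at M2, 7 at M3, 6 at M4, 8 at M5 and 8 at M6, and 0 fell. miR-98-5p, a let-7 family member by its seed, rose from 4.20 to 8.15 at PT (median 5.22) to 5.20 to 8.95 at M6 (median 7.07). The ranges overlapped, but 16 of 16 mice were higher at M6, and the change was 1.94 ± 0.29 (adjusted p = 1.1e-08). let-7d-5p rose by 1.85 ± 0.23 at M6 (adjusted p = 2.9e-11), from 6.82 to 9.98 (median 8.04) to 7.75 to 11.03 (median 9.22), again in 16 of 16 mice. let-7c-5p had another course, with a rise at D2 (1.25 ± 0.19, adjusted p = 6.5e-08) and D5 (1.42 ± 0.20, adjusted p = 1.9e-09) and a change of only 0.25 ± 0.20 at M6 (adjusted p = 0.29). let-7a-5p, which differs from let-7c-5p at 1 of 22 bases, did the reverse, with 0.02 ± 0.24 at D2 (adjusted p = 0.98) and 1.19 ± 0.24 at M6 (adjusted p = 2.5e-05). These early counts also depended on the cohort, since in cohort 1 alone 6 of 16 rose at D2 and in cohort 2 alone 0 rose and 2 fell. Without the cohort 1 males 2 rose at D2 and the median change of the list was −0.06 in place of 0.09, without the cohort 2 females 2 rose and 1 fell at D5, and without the cohort 2 males 1 rose at M1.

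**Figure D3:**
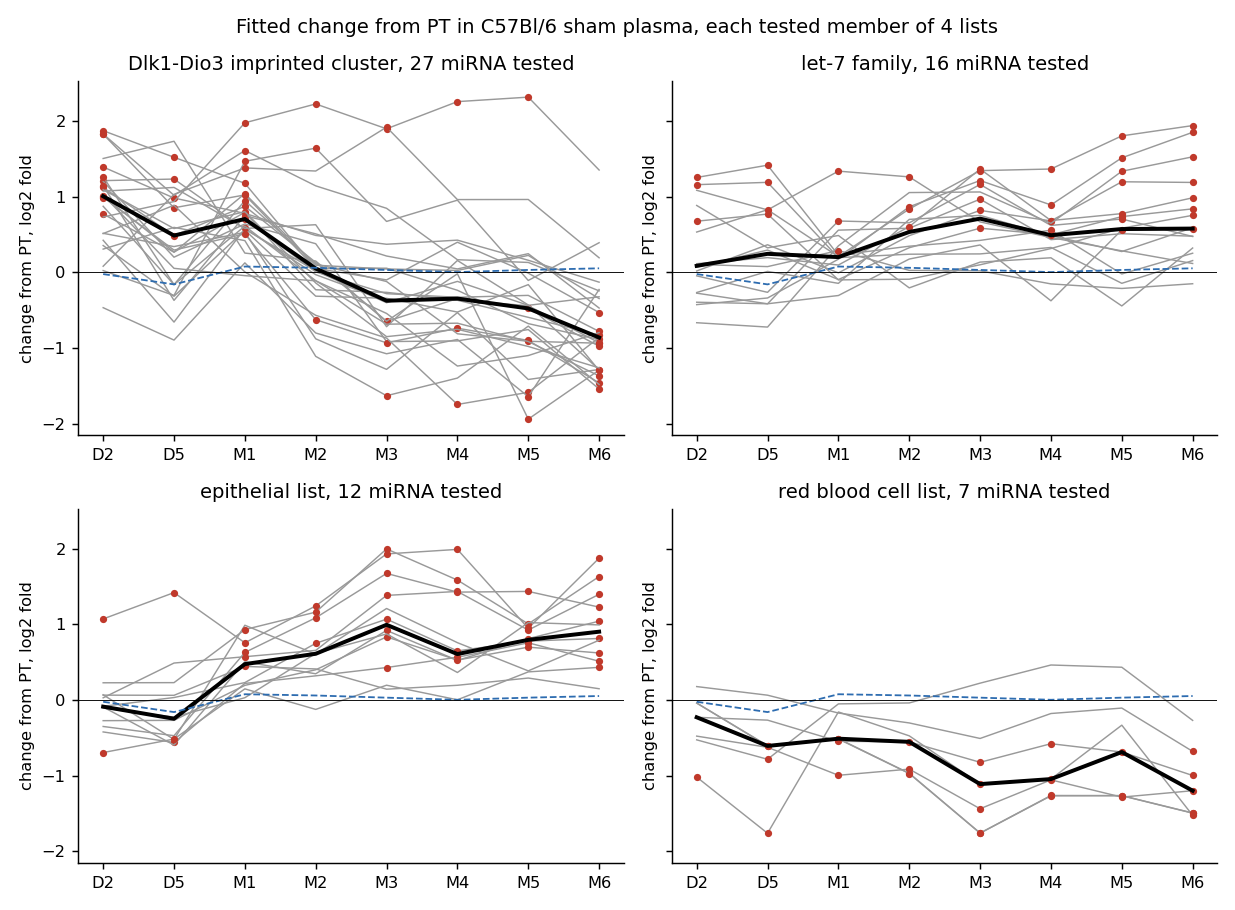
Fitted log2 change from PT at each time point for each tested member (grey lines) of the Dlk1-Dio3 cluster, the let-7 family, the epithelial list and the red blood cell list, with members past an adjusted p of 0.05 as red points, the list's median in black and the median of all tested miRNA in dashed blue. The median of the Dlk1-Dio3 cluster went from 1.01 at D2 to −0.86 at M6, that of the epithelial list reached 0.99 at M3, and that of the red blood cell list was lowest at M6 (−1.20).

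The miR-181 family and miR-132-3p were below baseline at M1 to M6 when all mice were fitted. All 4 tested miRNA with the seed ACAUUCA, miR-181a-5p to miR-181d-5p, which are known for their part in lymphocyte development, fell at each of M1 to M6. At M6 this did not hold in females alone, where the changes were 0.075 for miR-181a-5p, 0.43 for miR-181b-5p and 0.42 for miR-181d-5p, none past the threshold, and −0.48 for miR-181c-5p, which passed. In all mice miR-181a-5p went from 7.57 to 10.68 at PT (median 8.80) to 6.31 to 8.44 at M3 (median 7.20), a change of −1.64 ± 0.26 (adjusted p = 6.5e-08), and was higher in 2 of 16 mice. miR-132-3p, a target of the factor CREB, went from 6.50 to 9.29 (median 7.51) to 3.87 to 7.20 at M3 (median 5.86), a change of −1.82 ± 0.20 (adjusted p = 4e-14), whereas miR-212-3p, which has the same seed, passed at none of the 8 time points. miR-484 fell most at M4 (−1.85 ± 0.28, adjusted p = 1.2e-08). miR-143-3p, the abundant miRNA of smooth muscle, fell by 1.71 ± 0.19 at M5 (log2 change −1.71, adjusted p = 7.5e-13), from 13.49 to 15.10 at PT (median 14.50) to 11.63 to 13.85 (median 12.59), and 0 of 16 mice were higher.

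Other imprinted loci fell at the end as the Dlk1-Dio3 cluster did. All 4 tested members, miR-483-5p of Igf2, miR-335-3p and miR-335-5p of Mest, and miR-296-5p of the Gnas region, fell at M4, M5 and M6. miR-483-5p had a change of −2.65 ± 0.49 at M6 (adjusted p = 2.6e-06), from 1.95 to 4.89 at PT (median 3.94) to 0.28 to 3.37 (median 1.12), where 0.28 is the level of a library without a read. In contrast the Sfmbt2 cluster, a repeated array of the miR-467 and miR-669 type expressed from the paternal chromosome, rose late, with 6 of 11 tested members higher at M5, 8 of 11 at M6 and 0 lower at any time point. The miR-29 family, known to repress collagen genes, had 4 of 5 members higher at M3 and 1 of 5 at M6. Its miR-29b-3p went from 6.91 to 10.83 at PT (median 8.24) to 7.03 to 11.55 at M6 (median 9.47), a change of 1.74 ± 0.28 (adjusted p = 1.2e-07).

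The other cell type lists are given for comparison. Leukocyte miRNA had 3 of 12 higher and 3 lower at M6, near the shares of all tested miRNA (23.2% and 20.4%). The pan-leukocyte miR-142a-3p rose at M6 by 1.46 ± 0.26 (adjusted p = 1e-06). The largest fall of the list at M3 was that of miR-181b-5p (−2.03 ± 0.30, adjusted p = 7.5e-09). Over the time course miR-150-5p fell at 7 time points and rose at 0. In contrast miR-223-3p rose at 6 and miR-155-5p at 4, and both fell at 0. miR-142a-5p, the opposite arm of miR-142a-3p, rose at 1 and fell at 2. Stromal miRNA had 4 of 9 higher and 3 lower at D2, where miR-199a-5p rose by 1.86 ± 0.25 (adjusted p = 1e-09), and 1 higher and 3 lower at M6. For this list the cohorts were unequal at D2. The medians of the mean change within mice were −0.20 in cohort 1 and 1.04 in cohort 2, and the cohort difference passed for 1 of 9. Among the remaining clusters and families, the miR-106b, miR-93 and miR-25 cluster had 4 of 6 members lower at D5, 4 at M3 and 3 at each of M4 to M6, and 0 higher at any time point. The miR-183, miR-96 and miR-182 cluster, known from sensory organs and epithelium, had 3 of 3 higher at M3 and M4 and 0 lower at any, and the miR-99, miR-100 and miR-125 list had between 1 and 3 of 8 higher and 0 lower. Of the 2 endothelial miRNA tested 0 rose at any time point, 1 fell at each of D5, M1 to M4 and M6, and 2 fell at M5. The single tested miRNA of the pancreatic acinar list, miR-216a-5p, passed at none, and of the 2 tested gonad miRNA 1 fell at each of D2, M5 and M6.

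A slope over M1 to M6 was fitted in the 16 cohort 1 mice alone (96 samples, no PT sample), which asks whether plasma kept changing in months in which all mice had been bled before. It passed for 129 miRNA (36.1%), of which 47 rose (13.2%) and 82 fell (23%). Of the 27 Dlk1-Dio3 miRNA 22 fell and 0 rose, with a median slope of −0.28 log2 units per month. miR-434-3p had the smallest p in that direction, at −0.31 ± 0.04 per month (adjusted p = 2.4e-10), followed by miR-381-3p at −0.32 ± 0.04 per month (adjusted p = 1.9e-09). miR-92a-3p fell by 0.20 ± 0.03 per month (log2 slope −0.20, adjusted p = 4.5e-07). The 4 rising miRNA with the smallest p were miR-98-5p (0.33 ± 0.05 per month, adjusted p = 4.9e-07), miR-29b-3p (0.33 ± 0.06, adjusted p = 3.8e-06), miR-142a-3p (0.28 ± 0.05, adjusted p = 4.3e-06) and let-7d-5p (0.27 ± 0.04, adjusted p = 2e-06). By list, 7 of 16 let-7 miRNA rose and 2 fell, and 7 of 12 epithelial miRNA rose and 0 fell.

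The number of slopes that passed was smaller without month 1, which also leaves fewer samples and a shorter span. Without it, 23 miRNA passed (6.44%), among them 5 of the 27 Dlk1-Dio3 miRNA, all falling, 4 rising and 1 falling let-7 miRNA and 0 epithelial miRNA. The median slope was −0.19 in place of −0.28 per month for the Dlk1-Dio3 miRNA and 0.04 in place of 0.10 for the epithelial list. Without month 6 instead, 20 of the 27 Dlk1-Dio3 miRNA still fell, beside 77 of all 357 tested miRNA. In males alone 9 of the 27 fell and in females alone 20, with median slopes of −0.22 and −0.34 per month. Of all 357, 38 fell in males alone and 60 in females alone. Over M1 to M4 16 of the 27 fell in C57Bl/6 sham mice and 13 in C3H sham mice, beside 68 and 44 of all 357. The difference in slope between strains passed for 0 of the 27 and for 12.6% of all 357. This count of 0 does not show that the strains were alike, since a difference that misses the threshold may have gone undetected.

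Male and female mice did not follow the same course for some miRNA. The females were also older at the start (10 to 12 weeks against 8 to 10 weeks), and the libraries that stood apart were each of a single sex. Sex, starting age and any difference in handling or sequencing run between the sexes cannot be told apart. The test of a sex difference in the change from PT, over all 8 time points, passed for 104 miRNA (29.1%). By time point it passed for 1 miRNA at D2 (0.28%), 15 at D5 (4.2%), 15 at M1 (4.2%), 25 at M2 (7%), 16 at M3 (4.48%), 3 at M4 (0.84%), 2 at M5 (0.56%) and 69 at M6 (19.3%), and of the 69, 36 changes were higher and 33 lower in females. Without M6 the count was 70. miR-34a-5p rose at M6 by 1.53 to 2.95 within the 8 males (median 2.25) and changed by −0.11 to 1.30 within the 8 females (median 0.38). The sexes did not overlap, and the difference was −2.10 ± 0.33 (female minus male, adjusted p = 2.4e-07), whereas at M5 it was −1.54 ± 0.33 (adjusted p = 0.002) and at M3 −0.81 ± 0.32 (adjusted p = 0.18).

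miR-7a-5p, which is enriched in brain and endocrine tissue, had the smallest p of the sex test, and its difference changed sign between time points. At M4 its change was −1.45 to 0.08 in males (median −0.60) and 0.03 to 1.40 in females (median 1.02), a difference of 1.68 ± 0.33 (adjusted p = 0.00036). At M6 miR-7a-5p was higher than baseline in 4 of 8 males (changes of −0.74 to 1.70, median 0.27) and in 0 of 8 females (−2.19 to −0.48, median −1.20), a difference of −1.59 ± 0.33 (adjusted p = 8.5e-05). The male and female ranges overlapped at both times. miR-221-3p, found in endothelium and smooth muscle, passed at M3 alone of the 8 time points, with changes of −1.66 to −0.39 in males and −0.40 to 1.35 in females (1.50 ± 0.26, adjusted p = 1.1e-05). miR-423-3p fell in males at M6 (−1.59 to −0.65, median −1.27) and not in females (−0.37 to 0.67, median 0.15), without overlap, a difference of 1.36 ± 0.21 (adjusted p = 2.4e-07). The sex difference also reached the epithelial list, where at M2 9 of 12 miRNA had a lower change in females, with a median change of 1.19 in males and −0.21 in females, while the difference passed for 0 of 12 at M3. For the Dlk1-Dio3 cluster it passed for 0 of 27 at any time point. These counts of 0 do not show that the sexes were alike, since a difference that misses the threshold may have gone undetected.

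**Figure D4:**
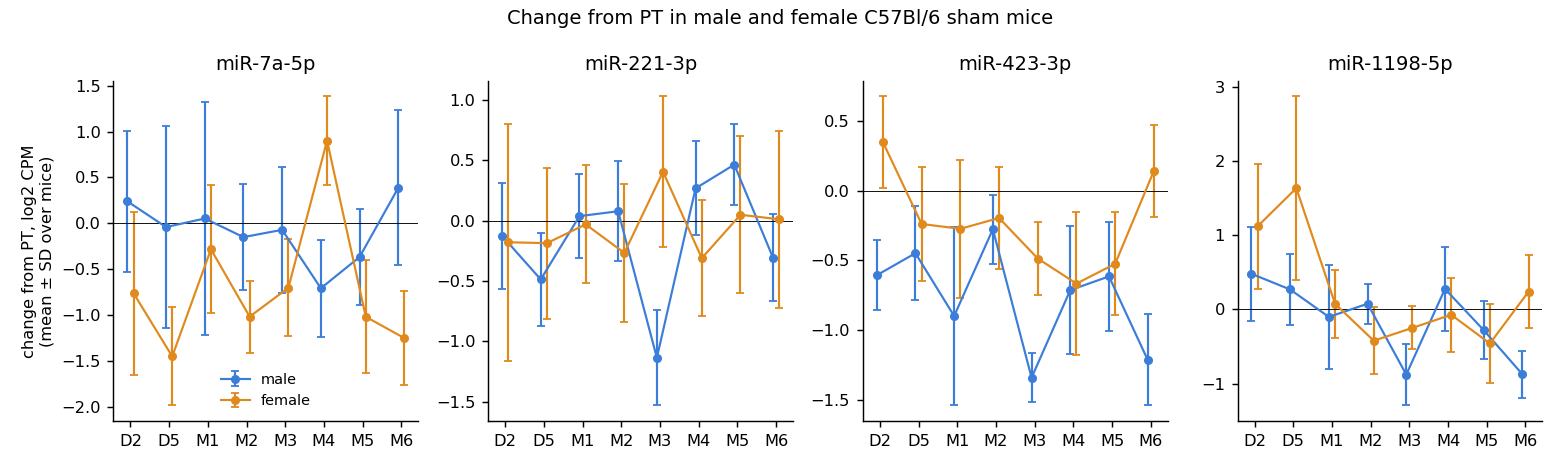
Change from PT (log2 CPM, mean ± SD over mice) of miR-7a-5p, miR-221-3p, miR-423-3p and miR-1198-5p in male (blue) and female (orange) C57Bl/6 sham mice, with 8 mice of each sex at D2, D5 and M2 to M6 and 16 of each at M1. The sexes were farthest apart at M4 and M6 for miR-7a-5p, at M3 for miR-221-3p and at M3 and M6 for miR-423-3p.

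The 2 cohorts were compared at D2, D5 and M1, the time points they share. A cohort difference of the change passed for 43 miRNA (12%), with 17 at D2 (4.76%), 3 at D5 (0.84%) and 25 at M1 (7%), of which 21 had the lower change in cohort 2. The 5 with the smallest p were miR-132-3p, the miR-181 members miR-181c-5p, miR-181a-5p and miR-181d-5p, and miR-144-5p. For miR-132-3p the mean change at M1 was −0.37 in cohort 1 and −1.85 in cohort 2, a difference of −1.41 ± 0.25 (adjusted p = 7.3e-05), and for miR-181a-5p it was −0.24 and −2.36, a difference of −1.91 ± 0.36 (adjusted p = 0.0002). Their M1 changes were smaller without the cohort 2 males, at −0.72 for miR-132-3p and −0.53 for miR-181a-5p, and still passed the test. Among the called miRNA of at least 5 log2 CPM, the mean change had the same sign in both cohorts for 62 of 70 at D2, 85 of 90 at D5 and 72 of 73 at M1, which is a description, since the calls used both cohorts.

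Sham C3H mice (144 samples, 32 mice, 390 miRNA tested in a joint fit, months to M4) had a different course from their own baseline. In C3H 72 miRNA rose at D2 (18.5%) and 54 fell (13.8%), with 52 and 40 at D5 (13.3% and 10.3%), 80 and 67 at M1 (20.5% and 17.2%), 64 and 59 at M2 (16.4% and 15.1%), 75 and 75 at M3 (19.2% and 19.2%) and 104 and 88 at M4 (26.7% and 22.6%). The strain difference of the change passed for 207 of 390 miRNA (53.1%), and it was 191 without D5. By time point it passed for 120 at D2 (30.8%), 154 at D5 (39.5%), 85 at M1 (21.8%), 31 at M2 (7.95%), 84 at M3 (21.5%) and 137 at M4 (35.1%). Across the 162 miRNA of at least 5 log2 CPM, the changes of the strains had a Pearson correlation of −0.04 at D2, −0.49 at D5, 0.41 at M1, 0.61 at M2, 0.55 at M3 and 0.23 at M4, which describes these libraries, since all mice of a strain and time point share that strain's baseline. Strain, and any difference in sequencing run or handling between the strains, cannot be told apart.

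The 5 miRNA with the smallest p of the strain test, miR-223-3p, miR-24-3p, miR-17-5p, miR-151-5p and miR-140-5p, were all higher than baseline in C57Bl/6 and lower in C3H at D5. In the joint fit, miR-223-3p changed at D5 by 1.50 ± 0.18 in C57Bl/6 and by −1.30 ± 0.19 in C3H, a difference of 2.81 ± 0.26 (adjusted p = 6.1e-20). For miR-17-5p the changes were 1.22 ± 0.20 and −1.53 ± 0.22 (difference 2.75 ± 0.29, adjusted p = 5.5e-16), and its PT median was 8.58 in C57Bl/6 and 10.05 in C3H, so the strains began apart. For miR-151-5p they were 1.74 ± 0.23 and −1.16 ± 0.24 (difference 2.90 ± 0.34, adjusted p = 8.9e-14). As for miR-17-5p, the PT median was higher in C3H for miR-223-3p (11.04 against 10.66) and miR-24-3p (12.56 against 12.01). It was also higher in C3H for miR-151-5p (6.35 against 4.76) and miR-140-5p (9.42 against 8.65). All of these changes are therefore taken from unequal baselines.

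Groups of miRNA differed in whether the strains shared them. The Dlk1-Dio3 rise at D2 was present in C3H, with 14 of 30 tested members higher and 0 lower and a median change of 0.92 in each strain, and the strain difference passed for 1 member in each direction. Even so, miR-382-5p did not rise in C3H (−0.04 ± 0.21 at D2, adjusted p = 0.9), and its difference was 1.82 ± 0.31 (adjusted p = 2.5e-07). By M4 10 of 30 had fallen in C3H. Epithelial miRNA were higher in C3H from the first days, with 6 of 12 at D2, 7 at D5, 8 at M1, 10 at M2, 10 at M3 and 11 at M4, and the C57Bl/6 change was the lower one for 6 of 12 at D2, at D5 and at M4 and for 2 of 12 at M3. miR-141-3p at D2 changed by 1.12 ± 0.25 in C3H and −0.42 ± 0.25 in C57Bl/6 (difference −1.54 ± 0.36, adjusted p = 0.00024), and at M3 by 1.88 ± 0.26 and 1.59 ± 0.24 (difference −0.28 ± 0.36, adjusted p = 0.63). miR-92a-3p fell in both strains at M3, by 2.21 ± 0.18 on the log2 scale (−2.21) in C57Bl/6 and by 1.15 ± 0.17 (−1.15) in C3H, a difference of −1.06 ± 0.23 (adjusted p = 0.00016).

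**Figure D5:**
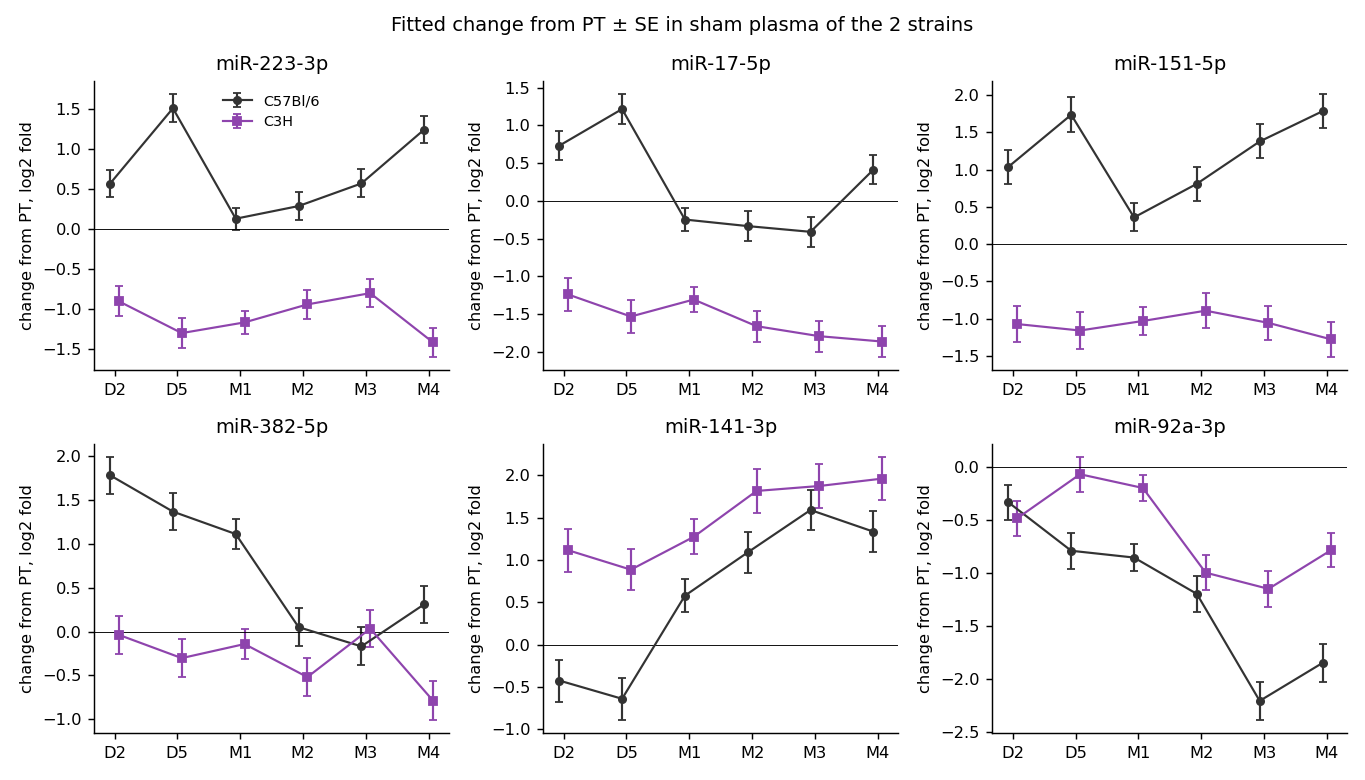
Fitted log2 change from PT ± SE of 6 miRNA in sham C57Bl/6 (black circles) and sham C3H mice (purple squares) at the 6 time points both strains share, from 1 fit of both strains. miR-223-3p, miR-17-5p and miR-151-5p were above baseline in C57Bl/6 and below it in C3H at D2, D5 and M4, and the miR-141-3p changes were apart at D2 (1.12 in C3H, −0.42 in C57Bl/6) and near each other at M3.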

How the data were processed

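Plasma was prepared from blood of 32 sham irradiated C57Bl/6 mice (176 samples), and samples with hemolysis over a limit were excluded by the authors. Libraries were made with the QIAseq miRNA kit and sequenced on a NextSeq instrument, and the authors counted reads per mature miRNA with the BaseSpace Small RNA application on mm10. The deposited values are raw counts, and whether unique molecular indices were used in the counting is not given in the sources used here, so depth covers counting error only. Total counts were 419427 to 9022364 per sample. No 2 of these samples held identical values (0 found), and 77.1% of values were 0.

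From these counts, edgeR 4.0.16 (R 4.3.3) was run with filterByExpr, TMM scaling (factors 0.507 to 1.60) and a quasi-likelihood fit with the mouse as a block (136 residual degrees of freedom), with Benjamini-Hochberg adjustment over the 357 miRNA tested, which held 99.98% of reads. Levels used a prior count of 2. Each time point was compared with PT in the same mice. The pairing comes from the mouse number in the sample titles, and deviations from group means had a mean correlation of 0.104 over 496 pairs of samples of the same mouse, against −0.0037 for samples of different mice. Sex, cohort and strain differences were tested as interactions (390 miRNA with C3H), and the slope over months 1 to 6 in 96 samples. Library measures were tested by sign-flip permutation (two-sided, exact enumeration or 100000 resamples) and adjusted over 8 time points. P-values measure the spread of the changes within these mice, and those of the fits pool it over all time points. They do not cover a difference shared by all samples of a time point, such as a sequencing run. The fits were tested on simulated counts with known changes, where the sex difference over time recovered a smaller share of the changed miRNA than the change from PT or the month trend.

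The named miRNA were, among those of at least 5 log2 CPM, the 3 largest rises and falls at each time point, the 10 smallest p over time, the 5 smallest p in each direction of the month trend and in each of the sex, cohort and strain tests, and members of the lists. miR-148a-3p, miR-425-5p, miR-6967-3p and miR-212-3p fall outside this rule and were chosen after their values were seen. The members and lists were chosen with earlier results of these data known. Alternatives were limma 3.58.1, DESeq2 1.42.0, other scalings and filters, subsets of mice, the red blood cell ratio as a covariate and a GC correction.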

Additional observations from a re-analysis of the deposited data

Results flagged for a closer look

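The change from PT differed between male and female C57Bl/6 sham mice, by the test over all time points, for miR-7a-5p (adjusted p = 1.1e-11), miR-221-3p (adjusted p = 3.66e-09), miR-423-3p (adjusted p = 1.38e-08), miR-1198-5p (adjusted p = 4.99e-08) and miR-423-5p (adjusted p = 1.04e-06), which are the 5 smallest of the 104 that passed. miR-1198-5p differed at D5 (female minus male 1.52 ± 0.30) and M6 (1.53 ± 0.29), and miR-423-5p at the same times (1.47 ± 0.26 and 1.38 ± 0.26). The 5 smallest adjusted p of the cohort difference were those of miR-132-3p (3.69e-05), miR-181c-5p (4.83e-05), miR-181a-5p (5.07e-05), miR-144-5p (0.0033) and miR-181d-5p (0.0061). The 5 smallest of the strain difference were those of miR-223-3p (9.32e-25), miR-24-3p (5.59e-20), miR-17-5p (6.77e-20), miR-151-5p (9.44e-20) and miR-140-5p (1.8e-19).

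Single mice stood apart from the other 7 mice of their cohort in 9 of the 156 groups of paired changes that were checked, and chance gives about 1 in 20 groups. In cohort 1 at D2, the change of miR-135a-5p was 3.69 in 1 mouse against 1.29 in the nearest, and that of miR-140-5p was −0.49 against 0.82. In cohort 1 at D5, a different mouse stood apart for each of 3 miRNA, with a change of 1.24 for miR-10b-5p (nearest 0.15), −3.04 for miR-144-5p (nearest −2.19) and 3.62 for miR-151-5p (nearest 1.84). In cohort 2 at D2, the values were 2.55 for miR-1198-5p (nearest 1.00), 3.03 for miR-151-5p (nearest 0.85), −3.53 for miR-206-3p (nearest 1.93, median 3.02) and −0.26 for miR-434-3p (nearest 1.16). The value of miR-206-3p and that of miR-434-3p came from the same female, which went against the rise of the others of its cohort.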

How the results depend on the processing

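Of the counts of changed miRNA under another setting, 149 were within 1.5 times the value reported and 17 were not. Testing only miRNA of at least 5 log2 CPM, which leaves fewer miRNA, gave 100 at M6, 155 at any time and 73 for the month trend. Cohort 1 alone gave 32 at M1, and cohort 2 alone 32 at D2, 55 at D5 and 158 at any time. Males alone gave 39 at D2, 52 at D5 and 67 at M2, and females alone 47 at M1, 58 at M2, 94 at M3 and 74 at M5, in each case from fewer mice. The red blood cell ratio as a covariate gave 65 at M1, the month trend without month 1 gave 23, and the cohort difference with no replicate block (without the pairing by mouse) gave 96 against 43, where the cause was not tested. Without the block no other count of calls moved by over 1.5 times.

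For single miRNA, 4569 values stayed on the same side of the threshold, 335 lost the call and 131 gained one. A further 12 reversed direction with a call in either fit. The 4569 include any value that changed direction without a call in either fit. In cohort 2 alone at D2, miR-200c-3p was −0.075 and miR-423-5p −0.11. In males alone miR-503-3p was −0.020 at D5, miR-98-5p −0.25, miR-29b-3p −0.18 and let-7d-5p −0.0079 at M2, and miR-7a-5p −0.76 at M4. In females alone at M6, miR-181b-5p was 0.43, miR-423-3p 0.10, miR-423-5p 0.29, miR-181a-5p 0.075 and miR-181d-5p 0.42.

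Chosen after seeing the data, the count without the cohort 1 males at D2 was 80, the strain difference without D5 gave 191, the sex difference without M6 70 and the month trend without month 6 109. With a GC correction the month trend gave 99 of the 304 miRNA with a sequence (32.6%). At M2 to M6 the changes from PT had Pearson correlations of −0.18 to −0.27 with GC percent (138 miRNA). With the correction the median let-7 slope was 0.03 in place of 0.08 per month, and 6 of 16 rose. Of the Dlk1-Dio3 miRNA 19 of 25 fell, and of the epithelial miRNA 6 of 12 rose. The part of GC content was not tested further. Depth limits the rarer miRNA, since 357 of 1915 could be tested.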
